A study of Mus musculus with 5 samples.

Results

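The eosinophil granule genes Prg2, Prg3 and Epx were followed across single-cell transcriptomes of mouse bone marrow, to see in how many cells their transcripts lay and whether these cells also carried basophil or neutrophil markers. The 3 genes were taken by name from the 15287 genes in the table, and all 3 were listed. In eosinophils, granule proteins are made early in development and stored. Prg2 encodes major basic protein, a cationic protein of the granule core that also occurs in basophils, and Prg3 encodes a homolog of it. Epx encodes eosinophil peroxidase, a heme enzyme related to the myeloperoxidase of neutrophils, and eosinophils, basophils and neutrophils all arise from granulocyte progenitors of the bone marrow.

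Untreated Fgd5CreERT2/+Rosa26Tomato/+ mice aged 20 weeks were the source of all cells, so no library came from mice without the reporter and Cre alleles. In this strain, the Fgd5 locus carries ZsGreen and CreERT2, with Fgd5 a gene used to mark hematopoietic stem cells (HSCs), and Tomato is switched on only after Cre recombination, in a study that traced lineages from HSCs in steady state. Lineage-negative, c-kit-positive marrow (Lin-kit+) gave 3 libraries, here named Lin-kit+ a, b and c, and ZsGreen-positive cells gave a library without (Fgd5+) and a library with (HSC-Fgd5+) a further gate on Sca-1, CD150 and CD48. Transcripts were counted as unique molecular identifiers (UMIs), each of which stands for 1 captured molecule. Libraries are told apart in the table only by a barcode suffix, so the population behind a suffix was taken from the number of cells stated for each population, on which every difference between populations below depends. The sample title and source of the reporter-positive pair disagree on which had the HSC gate. Whether libraries came from separate mice is not stated, so n counts libraries and the spread between them may be technical.

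The Lin-kit+ libraries held 11581 cells with 64763940 UMIs and the reporter-positive libraries held 1312 cells with 6335022 UMIs, with a median of 3721 to 6567 UMIs per cell and library. Of 12830 distinct barcodes, 62 occurred in more than 1 library. A UMI of Kit was found in 13.4% of Lin-kit+ cells, although all were sorted for the c-kit protein. No row for the reporter or for Cre was listed, so the reporter gate could not be checked from RNA.

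In the mouse genome (GRCm38), Prg2 lies at chr2:84980461-84983632 and Prg3 at chr2:84988215-84993886, both on the plus strand and 4582 bases apart. Epx lies at chr11:87864000-87875536 on the minus strand, 59586 bases from the end of Mpo, the myeloperoxidase gene. Over their aligned transcripts Prg2 and Prg3 were 67.7% identical, and the longest run of bases they shared was 23. Over the last 400 bases, where 3′ libraries take their reads, the longest shared run was 16 bases for Prg2 and Prg3 and 9 bases for Epx and Mpo. A promoter sequence was found for 2 of the 3 members, Prg3 and Epx. They are shown because the members were found in the same cells, and they run 5′ to 3′ from 250 bases before to 50 bases after the annotated start (RefSeq, GRCm38.p6). Prg3 is read from chr2:84987965-84988264 on the plus strand and Epx from chr11:87875487-87875786 on the minus strand. Capitals mark GATAA, the core that GATA factors bind, and TATAA, the TATA box, both searched on either strand.
Prg3: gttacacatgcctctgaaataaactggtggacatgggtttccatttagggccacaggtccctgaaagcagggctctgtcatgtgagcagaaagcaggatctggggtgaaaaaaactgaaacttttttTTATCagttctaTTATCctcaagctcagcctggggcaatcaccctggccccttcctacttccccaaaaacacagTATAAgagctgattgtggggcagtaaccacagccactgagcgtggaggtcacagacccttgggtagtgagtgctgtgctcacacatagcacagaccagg
Epx: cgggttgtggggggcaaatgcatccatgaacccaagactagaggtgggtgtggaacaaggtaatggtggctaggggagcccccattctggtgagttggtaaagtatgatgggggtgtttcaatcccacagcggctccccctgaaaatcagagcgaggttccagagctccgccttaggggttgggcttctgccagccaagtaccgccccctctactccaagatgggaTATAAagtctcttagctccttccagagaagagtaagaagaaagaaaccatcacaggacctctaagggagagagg
The Prg3 sequence held GATAA 2 times, both on the opposite strand (as TTATC), starting 123 and 111 bases before the start, and the Epx sequence held none. GATAA on either strand occurred in 25.4% of the 32851 mouse promoters of this length. TATAA stood once in each sequence, 49 bases before the start in Prg3 and 24 in Epx, against 24.9% of all promoters with a match. Both also held 1 match to TTGNNNAA, a core of C/EBP sites (36.7% of promoters), and none to GAGGAA, a core of Spi1 sites (28.3%), each searched on both strands. No match overlapped another.

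Members were almost absent from reporter-positive cells. Prg2 had 1817, 2717 and 4502 UMIs in Lin-kit+ a, b and c, and 0 in both reporter-positive libraries. Prg3 had 157, 238 and 422 UMIs in the Lin-kit+ libraries and 1 in each reporter-positive library. Epx had 48, 58 and 74 UMIs in the Lin-kit+ libraries and again 0 in both others. For each gene every Lin-kit+ library thus lay above both reporter-positive libraries, though how many of all genes did so was not counted. As UMIs per 1000000 UMIs of the library (CPM), the Lin-kit+ levels were 150.6 ± 28.8 for Prg2 (SD, n = 3), 13.4 ± 2.08 for Prg3 and 3.32 ± 1.39 for Epx. A count of 0 in 1312 cells allows a share of up to 0.229% of reporter-positive cells with a UMI. Against this limit of 3 counts over the group, the pooled Lin-kit+ level was 295-fold higher for Prg2 and 5.87-fold higher for Epx. For Prg3 the ratio was 40.0 (95% counting interval 11.0 to 331), from 817 against 2 UMIs. These values take UMIs as independent counts, but most member UMIs lay in few cells, so they do not bound the difference. By cells, at least 10 UMIs of a member were found in 0.363% of Lin-kit+ cells, against the limit of 0.229%.

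All 3 members were lower in the reporter-positive libraries by edgeR's quasi-likelihood test on library sums, with Benjamini-Hochberg adjusted p-values of 9.80e-06 for Prg2, 2.80e-05 for Prg3 (log2 difference −5.86, SE 0.41) and 8.31e-03 for Epx. Of 11991 genes tested, 63.1% differed and 30.4% were lower, so a call alone is common here. Without the Fgd5+ library the adjusted p of Epx was 0.0601. Fewer cells of a type and less RNA per cell cannot be told apart in such sums.

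Other granulocyte lists moved the same way between these populations. All 6 basophil markers, 4 primary granule markers and 5 secondary granule markers were lower in reporter-positive libraries, as were all 6 monocyte or dendritic and all 6 erythroid markers. By the same test 32.7% of all genes were higher. All 6 stem cell markers were higher, with a median log2 difference of 4.16 against 0.07 over all genes, and 3 of 5 megakaryocyte markers tested were higher. The stem cell markers include Ly6a and Slamf1, which encode Sca-1 and CD150. HSC-Fgd5+ cells were gated on both proteins, so part of this difference was set by the sort. Of 5 lymphoid markers tested, 3 were lower, and none of the mast cell markers was tested. Of the 8 further eosinophil markers, 2 passed the filter on low counts and both were lower. Among 16 of 18 regulators and receptors tested, 3 were higher and 10 lower (median −1.77). The 3 higher were Gata2 (2.08), Zfpm1 (3.81), which encodes a GATA cofactor, and Trib1 (1.96), while Cebpe, which encodes a C/EBP factor of granulocyte maturation, was lower (−6.85).

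Within the Lin-kit+ libraries the transcripts lay in very few cells. A Prg2 UMI was found in 21 of 1339, 69 of 4095 and 115 of 6147 cells (1.71 ± 0.153%, n = 3), a Prg3 UMI in 29, 49 and 99 cells (1.66 ± 0.486%), and an Epx UMI in 6, 13 and 20 cells (0.364 ± 0.0732%). The highest cell held 996, 577 and 816 Prg2 UMIs in the 3 libraries, 39, 37 and 59 Prg3 UMIs, and 15, 13 and 10 Epx UMIs. A single cell thus carried 54.8% of all Prg2 UMIs of Lin-kit+ a, 21.2% of those of b and 18.1% of those of c. In each library, 90% of the Prg2 UMIs lay in 5, 11 and 14 cells. Single UMIs made up 133 of the 205 cells with Prg2 and 123 of the 177 with Prg3, but only 10 of the 39 with Epx. Only 31 cells held 2 to 9 Prg2 UMIs, and 21 of these had many transcripts of Jchain.

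**Figure D1:**
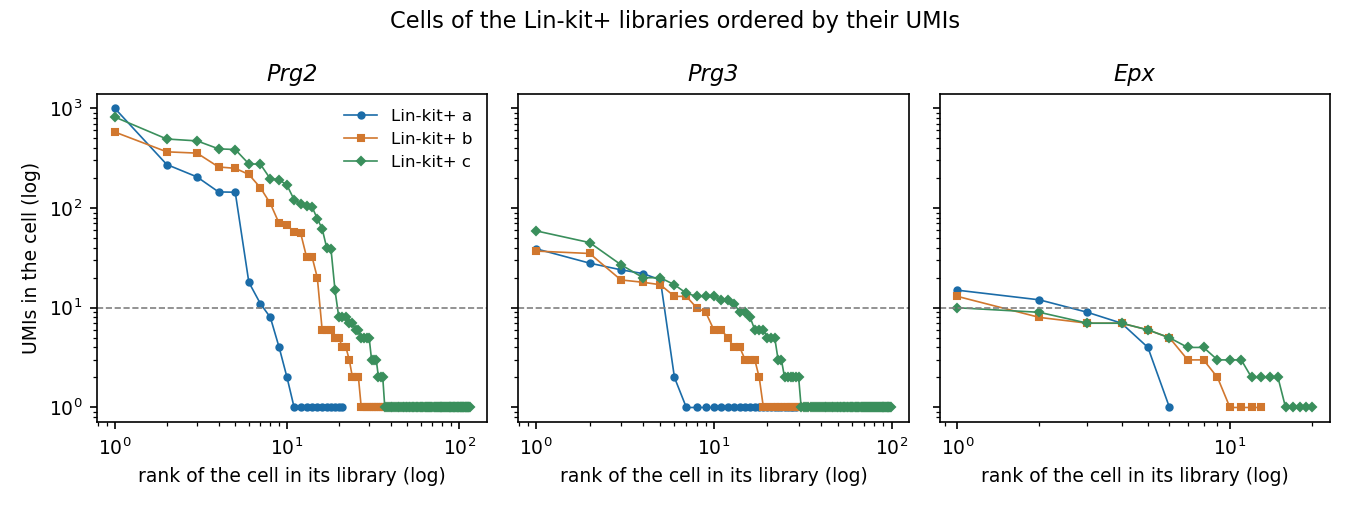
Lin-kit+ cells with a UMI of each gene, ordered by their UMIs within each library; the x axis gives the rank of the cell and the y axis its UMIs, both on log scales, with a point per cell and a dashed line at 10 UMIs. Prg2 falls from 996, 577 and 816 UMIs in the first cell to a long run of single UMIs, while Epx stops after 6, 13 and 20 cells.

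The 1% of Lin-kit+ cells with most UMIs of a gene (116 cells) held 99.0% of the Prg2, 92.5% of the Prg3 and 100% of the Epx UMIs. The median over the 10155 genes with at least 100 Lin-kit+ UMIs was 19.7%. Prg2 and Prg3 stood at positions 323 and 430 of these genes, and Epx shared the first. The basophil proteases Mcpt8 (64.6%) and Prss34 (71.7%) were less concentrated, and Elane and Mpo, the neutrophil elastase and myeloperoxidase of primary granules, were spread over most cells (6.79% and 6.10%). Epx was found in 39 cells, fewer than the 116 counted, so its 100% follows from that number.

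At least 10 UMIs of a member were found in 42 Lin-kit+ cells (the high cells), 7, 15 and 20 per library, or 0.405 ± 0.104% of cells (n = 3). They held 97.0% of the Prg2 UMIs, 78.2% of the Prg3 UMIs and 171 of the 180 Epx UMIs. Of the 42 cells, 41 passed the limit by Prg2 (the Prg2 cells), with 11 UMIs in the lowest of them and 8 in the highest cell outside. Prg3 passed it in 26 cells and Epx in 4. None of the 42 barcodes occurred in another library, and none of the cells was among the 2% of its library with most UMIs. Their median depth was 4067 UMIs against 5160 over all Lin-kit+ cells, and Prg2 made up to 19.8% of a cell's UMIs. A Kit UMI was found in 7 of the 42 (16.7%).

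The 3 members went together cell by cell. Of the 41 cells with at least 10 Prg2 UMIs, 39 had Prg3 and 29 had Epx. Every cell with at least 10 Prg3 UMIs had at least 8 of Prg2, and the 4 cells with at least 10 Epx UMIs had at least 273 of Prg2. Outside the Prg2 cells, Epx was found in 10 cells with 11 of its 180 UMIs. By the correlation of log2(1 + UMIs per 10000) over all Lin-kit+ cells, computed in each library and ranked by the lowest value, the nearest genes to Prg2 among those 10155 were Prg3 (r of 0.82, 0.79 and 0.78) and Epx (0.87, 0.68 and 0.79). Next came Jchain (lowest r 0.28), Mzb1 (0.27) and Ldhc (0.19). Beside the other members, Prg3 was nearest to Ldhc (0.20), Rnase12 (0.16) and Arsb (0.11), and Epx to Ldhc (0.18), Ear2 (0.18) and Rnase12 (0.14). The r of Prg2 with Mcpt8 was between 0.07 and 0.11 and that with Elane between −0.04 and −0.01. These values describe cells of shared libraries and rest on the few cells with many UMIs.

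Sharing with basophil markers was next counted, with a cell said to carry a list when it held at least 10 UMIs of it. The basophil list was Mcpt8, Prss34, Ms4a2, Fcer1a, Cd200r3 and Cyp11a1, and the primary granule list Elane, Prtn3, Mpo and Ctsg. Of the 41 Prg2 cells, 11 carried the basophil list (26.8%, Wilson 95% interval 15.7 to 41.9), against 3.45% of all Lin-kit+ cells. The primary granule list was carried by 31 (75.6%), which was close to the 67.3% of all cells that did so. Their content of it was lower, with a median of 31 list UMIs in the 41 cells. All Lin-kit+ cells had a median of 59, and all cells that carried the list had 132. Both lists were carried by 9 of the cells, the basophil list alone by 2, the primary granule list alone by 22 and neither by 8. None carried the secondary granule list (Ltf, Camp, Ngp, Lcn2 and Mmp8), against 2439 of all 11581 cells. Most Prg2 cells thus did not carry basophil markers. Of the 26 Prg3 cells 8 carried the basophil list, and of the 4 Epx cells 3 did. Of the 16 cells with at least 5 Epx UMIs also 3 carried it, and of the 39 with any Epx 10 did (25.6%), so the larger share at 10 UMIs rests on 4 cells.

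Read the other way, most basophil-marker cells lacked Prg2. The basophil list was carried by 57, 113 and 229 cells of Lin-kit+ a, b and c, and 2, 3 and 6 of these had at least 10 Prg2 UMIs (3.51, 2.65 and 2.62%). Among the other cells of each library the share was 0.390, 0.301 and 0.220%, lower than among basophil-marker cells in all 3. In total 379 of the 399 basophil-marker cells (94.99%) had no Prg2 UMI and 9 had 1 to 9. The 11 highest held almost all of what basophil-marker cells had, which was 37.8% of the Prg2 UMIs of Lin-kit+ cells.

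**Figure D2:**
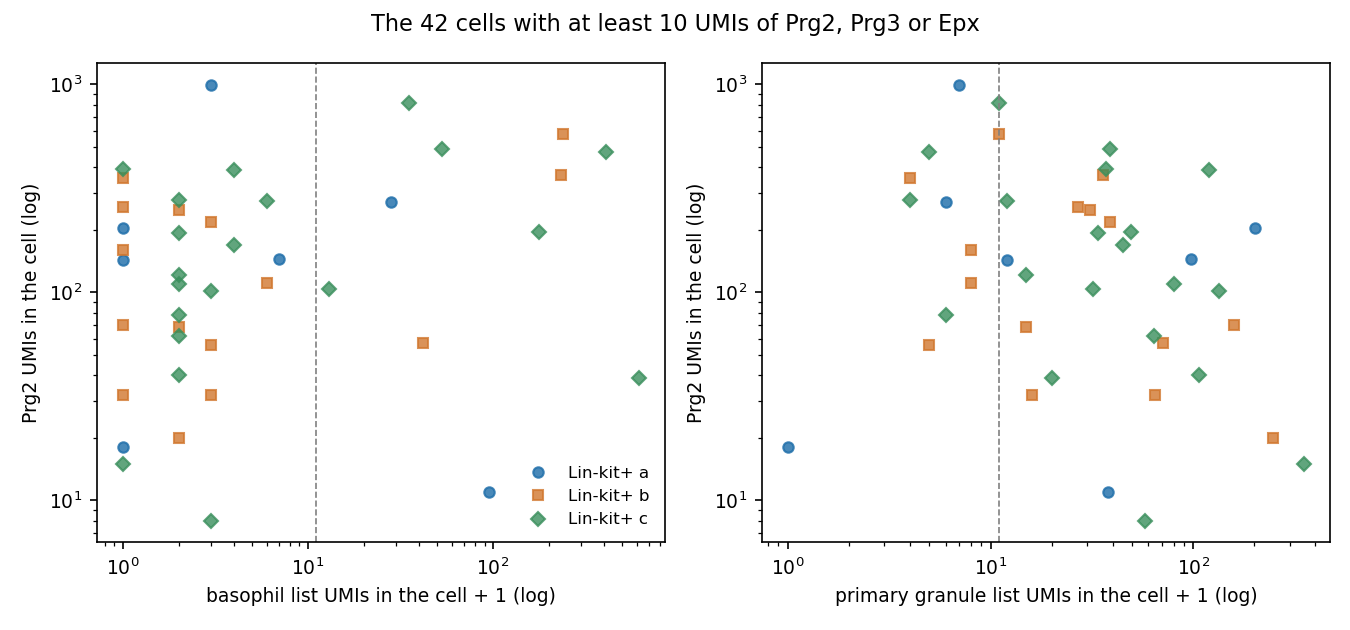
Prg2 UMIs (y axis, log) of the 42 cells with at least 10 UMIs of a member against their UMIs of the basophil list (left) and of the primary granule list (right), both plus 1 on a log axis, with a point per cell, colored by library, and a dashed line at the limit of 10 list UMIs. On the left 31 cells lie below the limit and 11 above it, and the highest cell (996 Prg2 UMIs) has 2 basophil UMIs.

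The cells with most Prg2 differed widely in these markers. The highest, in Lin-kit+ a, had 996 Prg2, 28 Prg3 and 15 Epx UMIs with 2 basophil and 6 primary granule UMIs. The highest in Lin-kit+ b had 577, 37 and 13 with 238 basophil and 10 primary granule UMIs. In Lin-kit+ c a cell with 471 Prg2 UMIs had 407 basophil UMIs, and a cell with 392 had none. The most basophil UMIs of the 42 cells, 614, stood beside 39 Prg2 UMIs and no Prg3 or Epx. Cells high in Prg2 were thus found both with and without basophil markers.

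To compare classes over libraries, each Lin-kit+ cell was given to the marker list with most UMIs in it, if these were at least 10. The basophil class held 49, 96 and 172 cells, the primary granule class 736, 2102 and 3260, and the secondary granule class 198, 648 and 1010. These were 2.93 ± 0.668, 53.1 ± 1.82 and 15.7 ± 0.831% of Lin-kit+ cells (n = 3). The members are in none of the lists. Of the 42 cells, 25 fell in the primary granule class, 9 in the basophil class, 4 in no class and 4 in others, among them the cell with 996 Prg2 UMIs, which counted as lymphoid through 12 UMIs of Nkg7 alone. The part in the primary granule class was thus near that class's part of all cells. The part in the basophil class was larger than its part of all cells. The Prg2 UMIs of Lin-kit+ a, b and c lay to 15.7, 34.9 and 44.8% in the basophil class (31.8 ± 14.8%) and to 27.6, 38.2 and 45.6% in the primary granule class (37.1 ± 9.08%). Prg3 lay to 18.0 ± 2.12% in basophil-class and to 69.8 ± 7.94% in primary granule-class cells, and Epx to 25.3 ± 2.99% and 47.6 ± 15.2%. Secondary granule-class cells held 0.183% of the Prg2 UMIs, 5 UMIs of Prg3 and none of Epx. For all 3 members the primary granule share was above the basophil share in each library. For Prg2 the shares lay close in Lin-kit+ b and c, and the ranges of the libraries overlapped. In Lin-kit+ b, cells of no class held more of Epx (41.4%) than the primary granule class (36.2%). At a class limit of 20 UMIs the order turned for Prg2, with 31.8 ± 14.8% in the basophil and 30.2 ± 9.22% in the primary granule class.

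**Figure D3:**
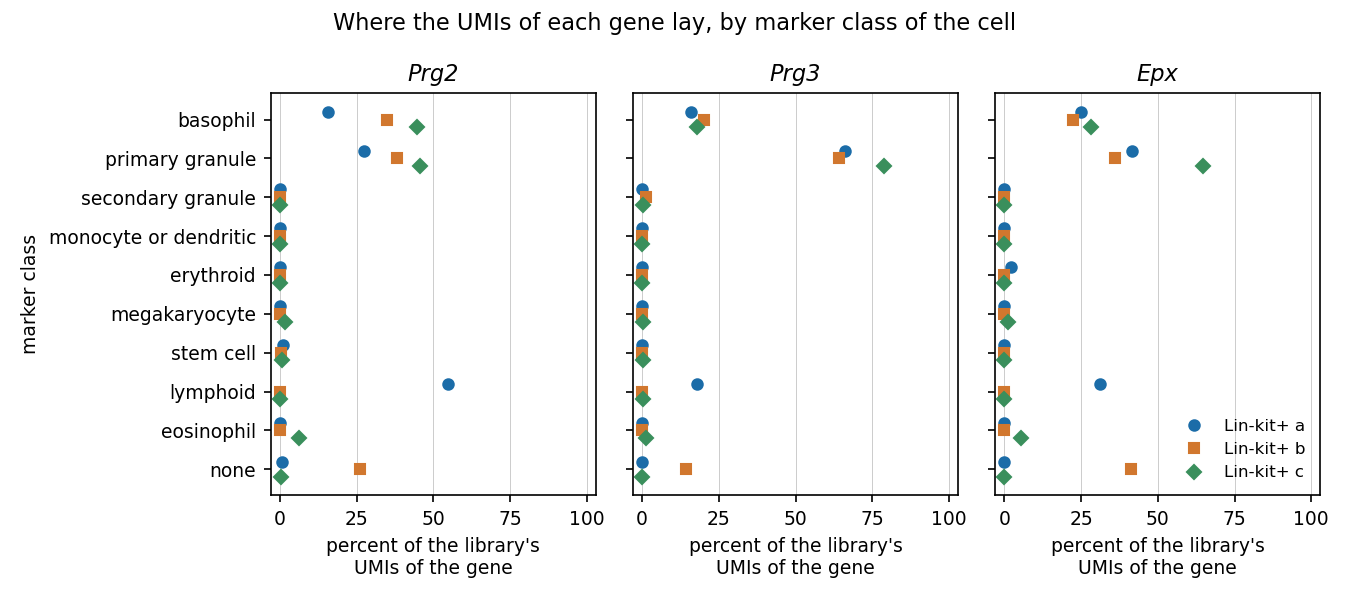
Percent of each Lin-kit+ library's UMIs of Prg2, Prg3 and Epx (x axis) that lay in cells of each marker class (y axis), with a point per library. Basophil and primary granule classes hold most of it except for Prg2 in library a, and the points for lymphoid in library a (54.8% of Prg2) and for no class in library b come from a few cells.

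Per 1000000 UMIs of the class, levels were higher in basophil-class cells than in cells of the primary and secondary granule classes. Prg2 stood at 1058, 2966 and 2762 CPM in the basophil class of Lin-kit+ a, b and c, at 77.0, 90.0 and 92.3 CPM in the primary granule class, and at 2.23, 1.70 and 1.51 CPM in the secondary granule class. Prg3 stood at 92.8, 150.2 and 104.1 CPM against 16.0, 13.3 and 15.0 CPM in the primary granule class. Epx stood at 44.6, 40.7 and 28.8 CPM against 3.08, 1.82 and 2.16 CPM. These 3 classes did not overlap with one another for any member over the 3 libraries, and how many of all genes parted them so was not counted. Other classes, with few cells high in Prg2, did overlap with the basophil class. Prg2 stood at 1624, 2250 and 1485 CPM in the stem cell class, and at 6167 CPM in the lymphoid class of Lin-kit+ a. The mean ratio of basophil to primary granule class was 23.8-fold for Prg2 (log2 4.58 ± 0.69, n = 3), 7.70-fold for Prg3 (2.95 ± 0.50) and 16.3-fold for Epx (4.02 ± 0.40). Over the secondary granule class, it was 10.17 ± 1.10 on the log2 scale for Prg2. Epx had 46 against 0 UMIs, which would be at least 119-fold if UMIs were independent counts, but the 46 lay in 8 cells.

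In edgeR, with class sums as samples and the library as a replicate block, all 3 members were higher in the basophil than in the primary granule class (log2 4.77, SE 0.09, adjusted p 1.95e-43 for Prg2; 2.99, SE 0.18, 7.29e-20 for Prg3; 3.98, SE 0.35, 1.11e-13 for Epx). Without the block the adjusted p-values were 1.64e-07, 4.16e-07 and 6.85e-06. Of 9480 genes, 28.6% differed in this comparison and 1232 were higher. Against the secondary granule class all 3 were also higher (9.92e-44, 1.45e-23 and 3.24e-14), where 43.7% of genes differed and 20.1% were higher. Class sums of these members rest on a handful of cells: 17 of the 317 basophil-class cells had a Prg2 UMI, the top 5 held 83.8% of the sum, and in Lin-kit+ a 273 of 285 UMIs came from 1 cell, so the SEs do not cover the sampling of cells.

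Of the regulators and receptors, 15 were tested between the basophil and primary granule classes, and 8 were higher and 5 lower in the basophil class (median 0.43 against −0.05 over all genes). Gata2 (log2 5.60, SE 0.14, adjusted p 2.37e-37) and Gata1 (4.27, SE 0.34, 1.91e-15), which direct basophil, eosinophil and erythroid development, were higher. Cebpe (−3.66, SE 0.22, 1.42e-20) and Irf8 (−3.81, SE 0.23, 7.33e-20), a factor of monocyte and dendritic development, were lower. Of the further eosinophil markers 3 were tested and 2 were higher.

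The 41 Prg2 cells were split by whether they carried the basophil list, and their regulators were set beside those of the marker cells with under 10 Prg2 UMIs. Cebpe was found in 27 of the 30 Prg2 cells without basophil markers, at 1018 CPM (95% counting interval 860 to 1196), and in 8 of the 11 with them, at 396 CPM (235 to 626). Other basophil-marker cells had 48.9 CPM of Cebpe and other primary granule-class cells 185.7 CPM. Both sets of Prg2 cells were thus above both kinds of marker cell, but all other Lin-kit+ cells had 447.8 CPM, which lies between the sets. Gata2 split the sets the other way, with 20.6 CPM (4.25 to 60.3) without and 286 CPM (152 to 489) with basophil markers, the latter near the 248.9 CPM of other basophil-marker cells. Gata1 stood at 41.3 CPM (15.1 to 89.8) and 66.0 CPM (13.6 to 193) in the sets, from 6 and 3 UMIs. These levels were above the 2.04 CPM of primary granule-class cells. They were near the 40.2 CPM of other basophil-marker cells, but also near the 37.8 CPM of all other Lin-kit+ cells. Cpa3, a mast cell and basophil carboxypeptidase that was chosen after its values were seen, stood at 523 CPM without and 2333 CPM with basophil markers. Irf8, at 461 CPM in the primary granule class, was at 20.6 and 22.0 CPM. These intervals cover counting error only, the sets pool cells of 3 libraries, and no test was made.

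Of the further eosinophil markers, Ear6 and Ear1 lay largely in the Prg2 cells and the others did not, or had few UMIs. Ear6, a ribonuclease of eosinophils, had 34 UMIs in Lin-kit+ cells, and 33 of them lay in 8 Prg2 cells without basophil markers. A single cell of Lin-kit+ c held 16 of these. Il5ra, the interleukin-5 receptor subunit that marks eosinophil progenitors, had 2, 7 and 2 UMIs in the 3 libraries, of which 6 lay in 4 of the 30 cells. Ear1 had 19 of its 22 UMIs in the 41 cells, with 8 in a cell of Lin-kit+ a and 8 in a cell of Lin-kit+ b, and Ear2 had 24 of its 142. Siglecf, a surface receptor of mature eosinophils, was found in 10 of the 30 cells (16 UMIs, 110 CPM) and in none of the 11, while other primary granule-class cells had 11.3 CPM and other basophil-marker cells 26.1 CPM. Its totals in the 3 libraries were 108, 218 and 456 UMIs, so nearly all of it lay outside the Prg2 cells. Ccr3, the eotaxin receptor, was at 0 in all 41. Alox15, a lipoxygenase, had 1 UMI in the 41 cells and 57 in other basophil-marker cells. Ccr3 had only 1, 0 and 3 UMIs in the 3 Lin-kit+ libraries, so its absence from the 41 cells says little. Siglecf was not found in most Prg2 cells, but its level in the 30 was above that of both kinds of marker cell. Which cell type the Prg2 cells belong to was not tested. Ear10 is not listed in the table used here.

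The balance of Prg3 to Prg2 varied among the 42 cells. Prg3 made a median of 7.87% of the summed Prg2 and Prg3 UMIs of a cell, from 0 to 71.4%, with medians of 5.31% in the 11 cells with and 8.94% in the 31 without basophil markers. It was higher in cells with more primary granule transcripts: over the 42 cells, Spearman's rho between this share and the percent of the cell's UMIs from the primary granule list was 0.69 (Pearson's r 0.56), and in Lin-kit+ a, b and c it was 0.93 (7 cells), 0.59 (15) and 0.74 (20). The percent of the cell's UMIs from Prg2 went the opposite way (rho −0.52), and that from Prg3 showed little relation (0.05). The cells with the highest shares were a cell of Lin-kit+ c with 8 Prg2 and 20 Prg3 UMIs and a cell of b with 20 and 35, the latter with 246 primary granule UMIs. The shares have Prg2 in the denominator and all percents share the cell's total, so these values describe the cells and carry no test.

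**Figure D4:**
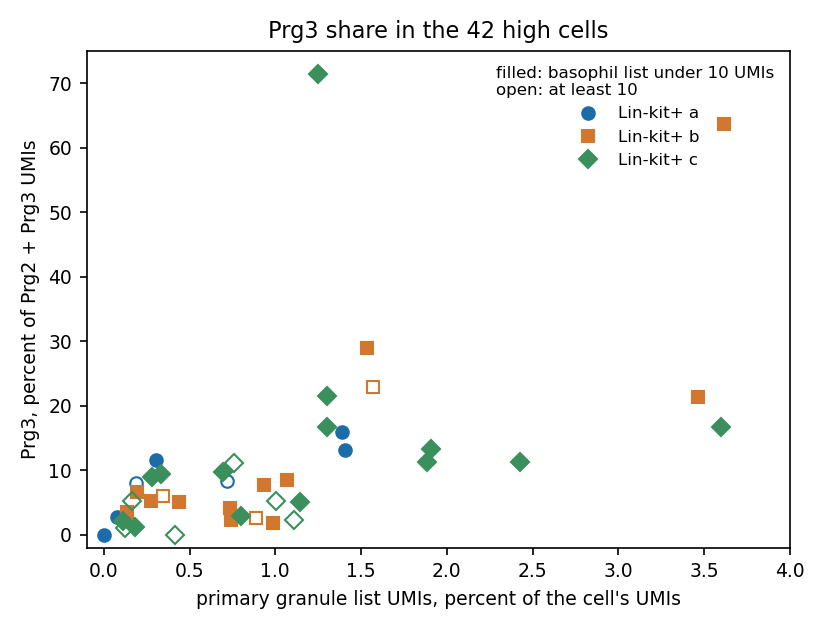
Prg3 as a percent of Prg2 plus Prg3 UMIs (y axis) against the percent of the cell's UMIs from the primary granule list (x axis) in the 42 cells, with a point per cell, colored by library and open where the cell carried the basophil list. Shares lie below 12% in most cells under 1% primary granule UMIs and reach 63.6 and 71.4% in single cells to the right.

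Prg2 was also found in another small set of cells, those with Jchain and Mzb1. Jchain encodes the joining chain of secreted antibodies and Mzb1 a chaperone of antibody-secreting cells. At least 10 Jchain UMIs were found in 4, 10 and 12 cells of Lin-kit+ a, b and c, all with at least 141, and each also had Mzb1. Of these 26 cells, 24 had Prg2 (92.3%, 75.9 to 97.9), with a median of 5 and at most 18 UMIs, against 1.57% of Lin-kit+ cells with fewer Jchain UMIs. Their Prg2 level was 2075, 1500 and 1434 CPM in the 3 libraries, similar in all. Prg3 was found in 3 of them with 5 UMIs, and Epx in none, which at 26 cells allows a share of up to 11.5%. None carried the basophil list and 2 carried the primary granule list. A single such cell was among the 42 cells (18 Prg2 and 918 Jchain UMIs). A Kit UMI was found in 1 of them.

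What remained was low and scattered, and its makeup differed. Leaving out the 42 cells and the Jchain cells, a choice made after the values were seen, 11514 Lin-kit+ cells held 163 Prg2, 173 Prg3 and 9 Epx UMIs. Droplets also take up free RNA, so erythroid-class cells, which should lack these genes, were used as a background, at a median depth of 5548 UMIs. A Prg2 UMI was found in 85 of 6071 primary granule-class cells (1.40%, 1.13 to 1.73; median depth 6160), 17 of 1856 secondary granule-class cells (0.916%, 0.573 to 1.46; 5097) and 5 of 506 erythroid-class cells (0.988%, 0.423 to 2.29). These intervals overlap, but they take cells as independent and the background rests on 5 cells. Whether the shares differ from this background was not tested. All 5 of the erythroid-class cells were in Lin-kit+ c, with 0 of 60 in a and 0 of 154 in b, which allow shares of up to 5.0 and 1.95%. A Prg2 UMI was also found in 8 of 308 basophil-class cells (2.60%, 1.32 to 5.04), whose level was 7.02 CPM, against 2463.9 CPM with the high cells included. The level of Prg2 in basophil-class cells rested on those few cells.

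Prg3 differed between the granule classes. A Prg3 UMI was found in 3.14, 1.34 and 2.25% of these primary granule-class cells of Lin-kit+ a, b and c (124 of 6071 in all, 2.04%, 1.72 to 2.43). The secondary granule class had 0, 0.463 and 0.198% (5 of 1856, 0.269%, 0.115 to 0.629), lower in each library. The erythroid class had 0 of 506 cells, which allows a share of up to 0.593%, and the monocyte or dendritic class 0 of 446. In the basophil class it was 4 of 308 cells (0.506 to 3.29%), an interval that covers the primary granule share. With each cell thinned to 3000 UMIs, the Prg3 shares were 0.846, 0.724 and 1.10% of primary granule-class cells (326 cells left out) and 0, 0.348 and 0.106% of secondary granule-class cells (146 left out), while those of Prg2, pooled over libraries, were 0.714 and 0.643%, with 0.233% (0.0412 to 1.31) in the erythroid class, from 1 cell. Prg3 made 60.4% (54.4 to 66.0) of the summed Prg2 and Prg3 UMIs of the low primary granule-class cells, and 77.4, 54.0 and 59.7% in the 3 libraries. In the Prg2 cells without basophil markers or Jchain it made 7.68% (7.02 to 8.39), and in those with basophil markers 4.89% (4.23 to 5.65). The limit of 10 UMIs that parts these sets also bears on their shares, since a cell with many Prg2 UMIs cannot be a low cell, so the sets are given side by side and not compared. Among low cells, where the limit is the same, Prg3 made 22.7% (10.1 to 43.4) in the secondary granule class and 11.4% (4.95 to 24.0) in all other classes, from 5 Prg3 UMIs each.

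The 124 low primary granule-class cells with a Prg3 UMI had a higher median percent of primary granule UMIs than the cells without in each library, 3.32 against 2.15, 2.58 against 2.36 and 3.05 against 2.45. The cells with a Prg2 UMI were also higher in Lin-kit+ b (3.58 against 2.35) and c (3.05 against 2.46), but not in a (1.99 against 2.20, from 7 cells), so this was not particular to Prg3. Cells with a Prg3 UMI were also deeper (median 7515 against 6138 UMIs), as were those with Prg2 (7030 against 6149), and the part of depth in these differences was not tested.

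**Figure D5:**
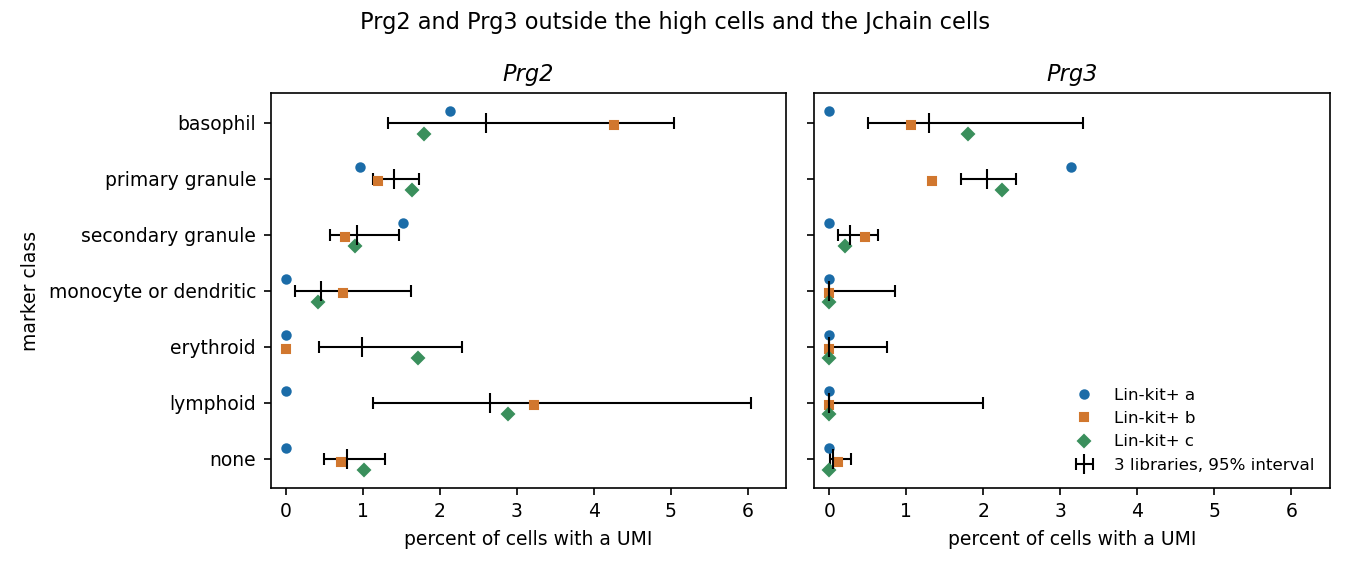
Percent of cells with a Prg2 (left) or Prg3 (right) UMI (x axis) in each marker class (y axis) after leaving out the 42 cells and the Jchain cells, with a point per Lin-kit+ library and a tick with its Wilson 95% interval for the 3 libraries pooled. Prg3 stands at 2.04% in primary granule-class cells and at 0 in erythroid-class cells, while the Prg2 intervals of these classes overlap.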

How the data were processed

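Bone marrow cells were measured with the Chromium 3′ v2 kit (10x Genomics) in 5 libraries. The submitters' processing notes name Cell Ranger 1.3 and 2.1, Seurat 2.3.4 and mm10. The authors combined 2 sequencing runs and deposited the UMI counts of every cell as 1 table, not normalized, which leaves out genes found in fewer than 3 cells. All cells were kept, and no doublet caller was run. Lin-kit+ libraries are not tied to single sample labels.

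The members and lists were chosen with earlier results of these data known. Named genes were the members, the marker lists (eosinophil, basophil, mast, primary granule, secondary granule, monocyte or dendritic, erythroid, megakaryocyte, stem cell and lymphoid), 18 regulators and receptors, and the 5 genes nearest to each member by correlation. Cma1 was the only mast cell marker listed in the table.

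UMI counts as deposited were summed per library, or per library and marker class, and tested with edgeR 4.0.16 in R 4.3.3 (TMM, filterByExpr, quasi-likelihood, Benjamini-Hochberg, adjusted p of 0.05), after tests on simulated data. Classes from the same library were paired by design, with the library as a block. DESeq2 1.42.0, library totals as scaling, cell and count filters, thinning, other class limits and each library left out were tried as alternatives. Shares have Wilson and CPM exact Poisson 95% intervals, which cover counting error only, and a count of 0 was given a limit of 3 counts. Depth ran from 2166655 to 36080242 UMIs per library. Python 3.11.15, scipy 1.17.1 and biopython 1.88 were used, with gene positions from GENCODE on GRCm38. Proteins were not analysed here.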

Additional observations from a re-analysis of the deposited data

How the results depend on the processing

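Of 223 alternatives over 29 results, 210 left a result where it was, 12 moved a value, 1 ended a call and 0 reversed a direction. Some of the 210 could not change a result, such as those for the 100% of Epx UMIs in the top 1% of cells, which follows from its few cells. Epx lost its call between populations without the Fgd5+ library, where the lone reporter-positive library is assumed to vary like the others. Its log2 difference was −8.71 there and −8.77 to −8.17 over the libraries left out. With 0 Epx UMIs in both reporter-positive libraries, these values depend on how edgeR treats a 0 and give no size. Leaving out a library gave 1445 to 2382 genes called between basophil and primary granule classes (2714 with all) and 2689 to 3794 between basophil and secondary granule classes (4146), in both cases lowest without Lin-kit+ c, and the members stayed called. Without the replicate block, 1956 and 3585 genes were called. With library totals as scaling, the split of calls between populations changed from 3921 higher and 3646 lower to 6586 and 1993 (median log2 of all genes 0.60 against 0.07), and that between basophil and secondary granule classes from 1906 and 2240 to 4560 and 787 (0.80 against −0.01). The latter scaling was chosen after the data were seen. Between basophil and primary granule classes, DESeq2 gave 1106 higher and 936 lower, against 1232 and 1482. All 3 members kept their direction and call under these scalings and tests.

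The mean share of cells with a UMI, thinned to 1000 UMIs, was 0.775% for Prg2, 0.566% for Prg3 and 0.243% for Epx, and with at least 2 UMIs 0.656, 0.459 and 0.279%. At a class limit of 20 UMIs, 61.7% of Prg3, 37.3% of Epx and 30.2% of Prg2 UMIs lay in the primary granule class, and for Prg2 this fell below the basophil class (31.8%). At least 5 Epx UMIs were held by 16 cells, of which 18.8% carried the basophil list, and at least 20 by 0 cells, so no share could be given there. No paired analysis was possible between populations because their libraries share only numbers given in accession order. The precision is limited by 3 and 2 libraries, by 42 cells that hold most member UMIs, and by depth, at which a single UMI cannot be told from free RNA in a cell.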

Other observations

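Genes near the members by correlation were followed in both sets of Prg2 cells, with no test of a difference. Ldhc, a lactate dehydrogenase best known from testis, was found in 18 of the 30 Prg2 cells without basophil markers (289 CPM, 95% counting interval 208 to 390) and in 6 of the 11 with them (176 CPM, 76.0 to 347), against 19.02 CPM in other basophil-marker cells and 3.74 CPM in other primary granule-class cells. The intervals of the sets overlap for Ldhc and for Arsb. Rnase12, a member of the ribonuclease A family, was found in 21 of 30 and 8 of 11 cells (289 and 726 CPM), and other basophil-marker cells had 451.1 CPM of it, so its place near the members was shared with basophil markers. Arsb, a lysosomal sulfatase, stood at 199 (134 to 286) and 242 CPM (121 to 433) in the sets, against 26.2 CPM in other primary granule-class cells, and was found in 75 of 388 other basophil-marker cells.

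A few of the 42 cells carried other lists. A cell of Lin-kit+ c with 277 Prg2 UMIs had 13 eosinophil list UMIs, all from Ear2. Another of Lin-kit+ c had 78 Prg2 UMIs, 16 of Ear6 and 18 of Pf4, a platelet chemokine. In Jchain cells, Ly6a, which encodes Sca-1, was found in 26 of 26 cells with 253 UMIs, and 9 of the 10 Lin-kit+ cells of the stem cell class were Jchain cells.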
